A study of Mus musculus with 2 samples.

Results

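Deubiquitinases (DUBs) remove ubiquitin from proteins and so oppose the ligases that attach it. USP21, the enzyme knocked down in this study, belongs to the large USP family of cysteine proteases. The 32 genes described here are DUBs and close relatives outside that family. They were taken by symbol from the gene table as the OTU, UCH, Josephin and JAMM families, 32 of 23889 symbols, and every one was found in both libraries. There were 14 OTU genes (ovarian tumour domain), 4 UCH genes (ubiquitin C-terminal hydrolases), 3 Josephin genes and 11 JAMM genes. OTU, UCH and Josephin enzymes cut with an active-site cysteine, whereas JAMM enzymes hold a zinc ion in a short motif of histidines and an acidic residue. Some JAMM-fold proteins have lost this motif and serve as structural subunits.

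RNA of E14 cells, a mouse embryonic stem cell (mESC) line labelled as coming from a 19/Ola mouse, was measured by RNA sequencing. Both cultures were grown without feeder cells on gelatin in medium with serum and the cytokine LIF, and both were harvested 3 days after shRNA transfection. The group named control shRNA (genotype label Normal) and the group named USP21 shRNA (genotype label USP21 knockdown) consist of 1 library each, so no value has a replicate error and no difference could be tested. The labels do not say which shRNA sequence was used or whether the transfected cells were enriched. A single line and 1 library for each shRNA group limit both groups as a model.

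Values are FPKM, that is fragments scaled by transcript length and by the size of the library. The FPKM of the library with control shRNA summed to 613617 and that of the other to 543206, which equals a shift of 0.18 on the log2 scale. The 1439 genes above 0 and below 0.1 FPKM in both libraries had a most common log2 ratio, control over USP21 shRNA, of -0.3. If most held equally few fragments in both, the control library had 1.23 times as many fragments as the other, while absolute depth is unknown. Usp21 itself was at 26.2 and 3.49 FPKM, 7.33-fold lower in the knockdown library after 0.1 was added to each FPKM. Folds and log2 ratios below include this addition unless another value is given. The 10 pluripotency markers were all well detected, at 54.6 FPKM or more in the control library and 30.2 or more in the knockdown library, and all 10 lay below the median log2 ratio of all genes. Their summed FPKM was 4388 and 3287, with log2 ratios of -0.21 for Pou5f1, -0.14 for Sox2, -0.86 for Nanog and -0.30 for Zfp42. Markers of primitive endoderm (6 genes, summed FPKM 45.5 and 42), trophectoderm (6 genes, 2.88 and 4.73), fibroblasts (6 genes, 18.2 and 6.02) and neural cells (5 genes, 47.1 and 31.9) summed to far less in both libraries. These sums rest on few genes. In the primitive endoderm list 3 genes had log2 ratios above 0 and 3 below, from -0.50 for Dab2 to 0.75 for Pdgfra. Thy1 alone made 17.3 and 5.29 FPKM of the fibroblast sum and Tubb3 alone 38.5 and 20.4 of the neural sum, while the neural genes Sox1 (0.44) and Nes (0.48) had log2 ratios above 0 and the trophectoderm genes Hand1 (1.42) and Gata3 (1.18), both under 1 FPKM in the control library, were over 2-fold higher with the USP21 shRNA. In the fibroblast list 1 gene was at 0 in the control library and 2 in the knockdown library, and in the trophectoderm list 1 was at 0 with the USP21 shRNA. Of the other trophectoderm genes, Cdx2 (0.52) and Eomes (0.20) had log2 ratios above 0 and Krt7 (-0.21) below 0. The part of any difference in cell state in the values below was not tested, and in bulk RNA fewer cells of a type cannot be told apart from less RNA per cell.

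The JAMM genes fell into 2 sets by sequence. The motif sought in the translated coding sequence was a histidine, any residue, a second histidine, 7 further residues, a serine, 2 residues and an aspartate. It occurred in 7 of the 11 JAMM genes, in none of the 21 other members, and in 64 of 20361 coding genes (0.314%). The coding bases of each match are shown because they separate the potential metalloproteases from the structural relatives, with capitals for the codons of the 2 histidines, the serine and the aspartate. They were read from the GENCODE M21 transcripts (GRCm38), on the coding strand, 5′ to 3′.
Psmd14: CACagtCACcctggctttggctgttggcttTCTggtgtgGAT
Cops5: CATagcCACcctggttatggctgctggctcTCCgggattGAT
Stambp: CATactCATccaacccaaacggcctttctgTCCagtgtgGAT
Stambpl1: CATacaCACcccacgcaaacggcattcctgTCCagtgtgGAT
Brcc3: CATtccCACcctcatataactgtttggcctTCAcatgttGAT
Mysm1: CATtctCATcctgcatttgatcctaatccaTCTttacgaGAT
Mpnd: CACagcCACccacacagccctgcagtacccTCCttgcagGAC

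In the proteins these stretches span residues 113 to 126 of Psmd14, 138 to 151 of Cops5, 335 to 348 of Stambp, 347 to 360 of Stambpl1, 122 to 135 of Brcc3, 647 to 660 of Mysm1 and 335 to 348 of Mpnd. No match was found in Cops6, Eif3f, Eif3h or Prpf8. The absence of a match says only that these residues in this spacing do not occur in the transcript searched.

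The members differed far more from one another than between the libraries. With the control shRNA they ranged from 0.492 FPKM (Otud7a) to 270 FPKM (Eif3h), with a median of 15.6, and with the USP21 shRNA from 0.511 (Otud7a) to 246 (Uchl3), with a median of 15.3. The summed FPKM was 1754 and 1679. JAMM genes held 60.2% and 57.3% of this sum, UCH genes 27.1% and 28.3%, OTU genes 11.0% and 12.8%, and Josephin genes 1.69% and 1.64%. The 4 JAMM genes without the motif alone held 44.4% and 43.8%, whereas the 7 with it held 15.7% and 13.5%. These 4 and Uchl3 were the most abundant members in both libraries.

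**Figure D1:**
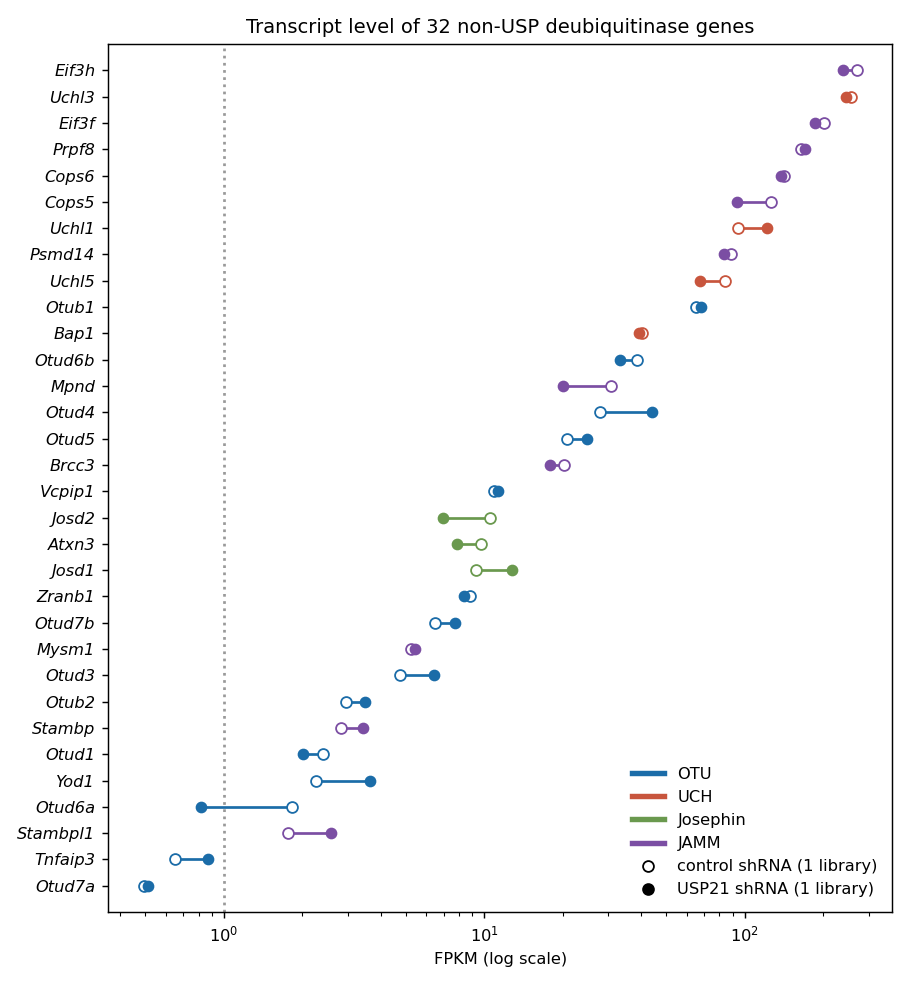
FPKM of the 32 genes on a log axis, ordered by the level with the control shRNA. Open circles are the control shRNA library, filled circles the USP21 shRNA library (1 each), colours mark the family, and the dotted line stands at 1 FPKM. Levels run from 0.492 to 270 FPKM, and the 2 circles of a gene lie close together against that range.

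The order of levels was largely shared by the libraries. Of the 31 pairs of neighbours in the order with the control shRNA, 22 kept their order with the USP21 shRNA and 9 swapped. At the top, Eif3h (270 and 239 FPKM) and Uchl3 (257 and 246) swapped, followed in both libraries by Eif3f, Prpf8 and Cops6. Cops5 and Uchl1 also swapped. Among the low genes, Otud1 and Yod1 swapped, as did Otud6a and Stambpl1. Not all swaps were between close levels. Mpnd and Otud4 were at 30.7 and 27.7 FPKM with the control shRNA and at 20.1 and 44.1 with the USP21 shRNA. With no replicates no swap could be tested, and neighbours at close levels cannot be ordered.

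To ask whether loss of Usp21 messenger RNA went with a change in other DUBs, the log2 ratio of FPKM + 0.1 (USP21 shRNA over control shRNA) was computed. It understates changes of low genes. Of the members, 30 reached 1 FPKM in at least one library, and Otud7a and Tnfaip3 did not. Only 5 of the 30 lay at least 1.5-fold apart. Otud4 and Yod1 were higher with the USP21 shRNA, 2 of 30 against 7.77% of the 11927 genes that passed the same filter. Otud6a, Mpnd and Josd2 were lower, 3 of 30 against 6.46% of all genes. At 2-fold none of the 30 was higher (2.3% of all genes) and Otud6a alone was lower (2.03% of all genes). These shares are close to those of all genes. Rescaling the libraries to equal FPKM sums raised the median of all genes to 0.18 and changed the split of genes past 1.5-fold from 927 higher and 771 lower to 1658 higher and 465 lower. It gave 5 members higher (Otud4, Yod1, Otud3, Josd1 and Stambpl1) and 1 lower (Otud6a), against 13.9% and 3.9% of all genes, so directions below are read against the median of all genes.

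The median log2 ratio of the 30 members was -0.036, and that of all 11927 genes was 0.0031. Against the latter 14 members lay above and 16 below. The middle 90% of all genes lay between -0.66 and 0.74, and 29 of the 30 members fell inside this range. The middle 50% lay between -0.22 and 0.24 and held 14 of the 30. By family the median was 0.15 for 12 OTU genes, -0.046 for 4 UCH genes, -0.30 for 3 Josephin genes and -0.084 for 11 JAMM genes. Within the JAMM genes it was -0.084 for the 7 with the motif and -0.080 for the 4 without it. The 4 without it spanned only -0.17 to 0.055, while the 7 with it spanned -0.61 to 0.52.

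**Figure D2:**
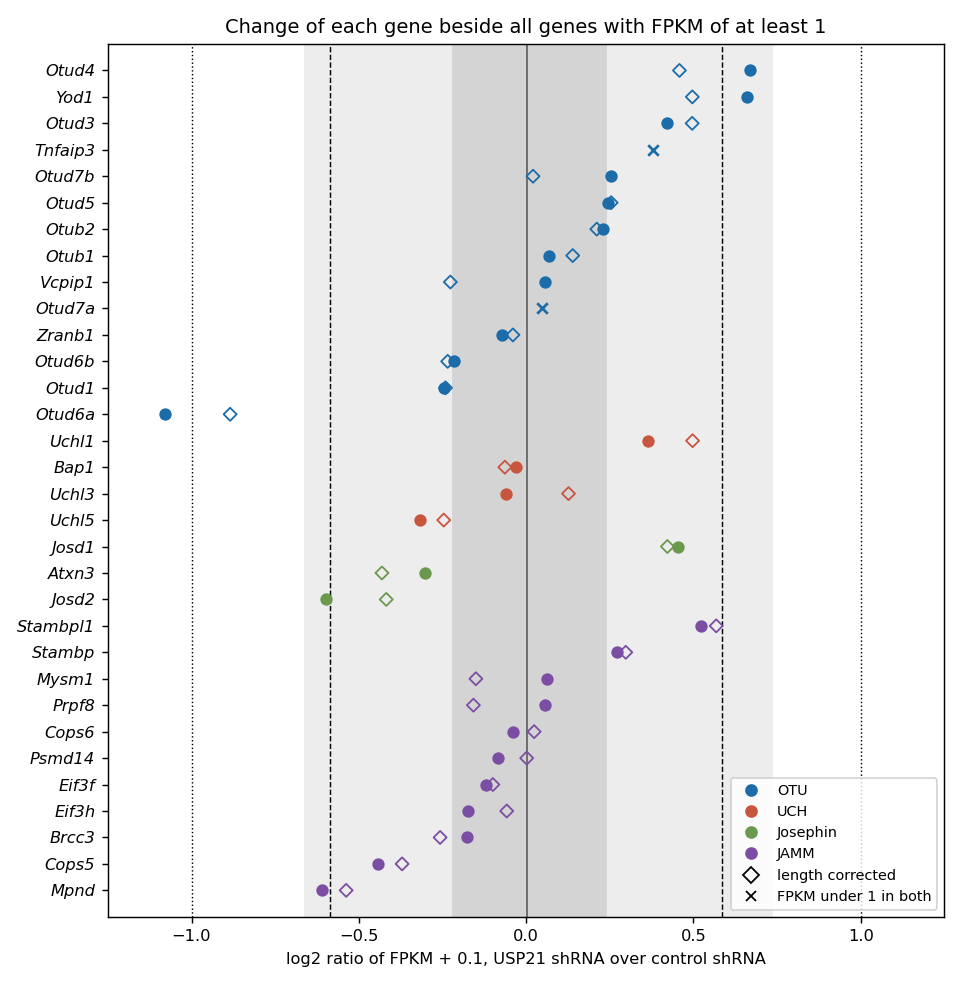
Log2 ratio of each gene (filled circles; crosses for the 2 genes under 1 FPKM in both libraries), grouped by family, with the value after correction for transcript length as open diamonds. Dark and light grey bands hold the middle 50% and 90% of 11927 genes, and dashed and dotted lines mark 1.5-fold and 2-fold. Otud6a is the one circle outside the light band.

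Part of the spread followed transcript length. Across 11853 genes with a length in GENCODE M21 the Spearman correlation of the log2 ratio with length was 0.32, and across the 30 members, which share the same 2 libraries, it was 0.37. In the fifth of genes with the shortest transcripts, 137 to 1617 bases, the median log2 ratio was -0.16, and in the fifth with the longest, from 4787 bases upward, it was 0.17. The 6 members in the first range had a median of -0.13 and the 7 in the last a median of 0.062. Both members that were higher by 1.5-fold have long transcripts (Otud4, 7354 bases; Yod1, 6128 bases), and the 3 that were lower have short ones (Otud6a, 873 bases; Josd2, 930 bases; Mpnd, 1701 bases). After a smooth correction for length only Otud6a stayed past 1.5-fold, with a log2 ratio of -0.88, so that 0 of 30 members were higher and 1 lower against 6.98% and 5.99% of 11853 genes. The cause of the length trend was not tested.

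**Figure D3:**
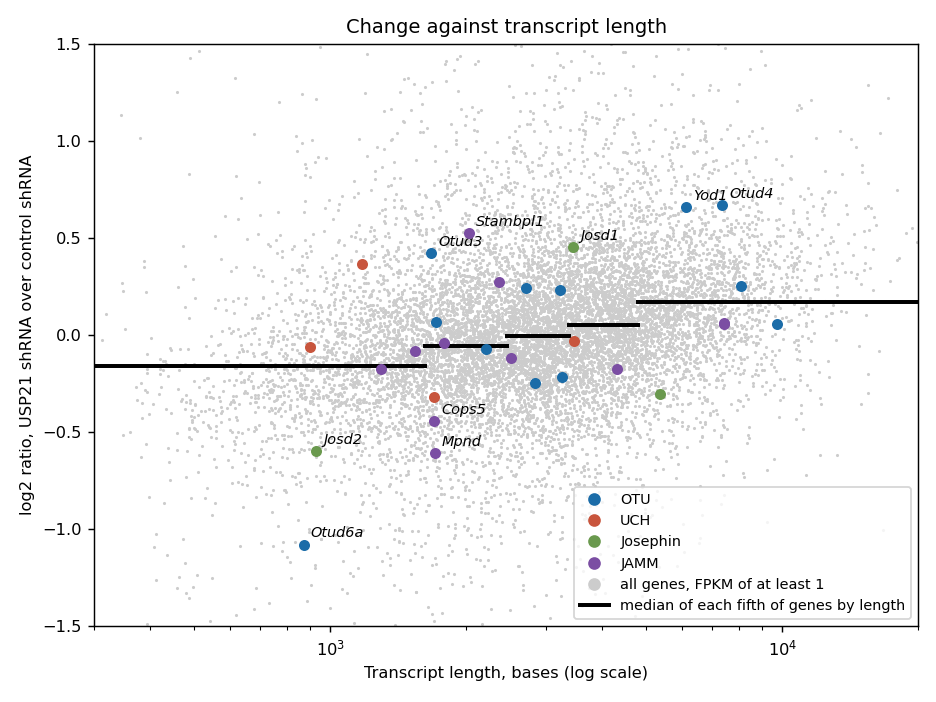
Log2 ratio against transcript length on a log axis for every gene past the filter (grey) and for the members (coloured by family; genes beyond 0.42 are named). Black bars are medians of the 5 groups of genes by length, rising from -0.16 to 0.17. Grey points outside the plotted window are not drawn.

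Among the OTU genes, Otub1 was the most abundant. It encodes an enzyme that also blocks certain ubiquitin-conjugating enzymes without cutting, and it was at 65.0 and 68.1 FPKM. Its relative Otub2 was at 2.95 and 3.48 FPKM. Otub1 thus held 95.7% of the FPKM of the pair in the control library and 95.1% in the knockdown library, and the transcripts share no stretch of 31 bases.

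Otud4, a scaffold of DNA alkylation repair, went from 27.7 to 44.1 FPKM, 1.59-fold. This log2 ratio of 0.67 was the highest of all members, just above 0.66 for Yod1. Of the 500 genes nearest in expression, 20 differed from their common median by as much. With length corrected the log2 ratio of Otud4 was 0.46 and no longer the highest. It then lay below Stambpl1 (0.57) and below Uchl1, Yod1 and Otud3 (0.50 each). Yod1 acts with the ATPase p97 in the removal of misfolded proteins from the endoplasmic reticulum. It went from 2.26 to 3.63 FPKM, 1.58-fold with 0.1 added to each, and 110 of the 500 nearest genes lay as far out. With length corrected its log2 ratio was 0.50, and 2.51% of its exonic bases overlap Pfkfb2 on the other strand.

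Otud6a had the lowest log2 ratio of the members. It was at 1.83 and 0.815 FPKM, a log2 ratio of -1.08, and 47 of the 500 nearest genes lay as far out. Otud6b, from the same subfamily, was at 38.5 and 33.2 FPKM and so held 95.5% and 97.6% of the pair. Otud6a was among the lowest members in both libraries, and with a pseudocount of 1 its log2 ratio was -0.64. Otud6b shares 12.6% of its 31-base words with other annotated genes, mainly Gm12444 (12.0%).

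The remaining OTU genes stayed under 1.5-fold. Otud3 was at 4.75 and 6.40 FPKM, and Otud5, a regulator of interferon production and of embryonic differentiation, at 20.9 and 24.7. Otud1 was at 2.40 and 2.01 FPKM. Otud3 had the next highest log2 ratio in the family past the filter, 0.42, and Otud1 was among its 4 genes below the median of all genes. Otud7b, a negative regulator of NF-κB signalling, was at 6.48 and 7.75 FPKM. Otud7a was at 0.492 and 0.511 FPKM, so Otud7b held 92.9% and 93.8% of that pair. Zranb1, which trims atypical ubiquitin chains, was at 8.84 and 8.39 FPKM, and Vcpip1, a p97 partner in Golgi reassembly, at 10.9 and 11.3. Their log2 ratios were -0.073 and 0.056, and 4.38% of the exonic bases of Vcpip1 overlap 1700034P13Rik on the other strand. With length corrected the log2 ratio of Vcpip1 was -0.23. Tnfaip3 encodes A20, an inhibitor of NF-κB signalling, and was at 0.648 and 0.873 FPKM, under the filter in both libraries.

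**Figure D4:**
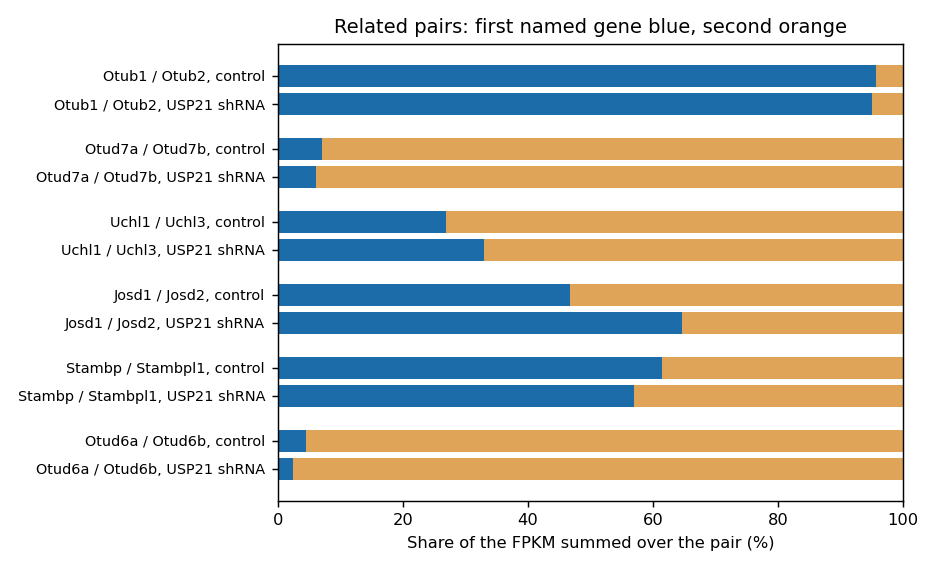
Share of the FPKM summed over pairs of related genes held by the first (blue) and the second gene (orange), in each library. Otub1, Otud7b and Otud6b hold over 92% of their pairs in both libraries, and the larger share changes from Josd2 (53.2%) to Josd1 (64.7%) in the Josephin pair.

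The UCH genes were all expressed at 39.4 FPKM or more. Uchl3, which trims small adducts from the ubiquitin C terminus, was at 257 and 246 FPKM. Uchl1, best known from neurons and the germ line, was at 94.3 and 121 FPKM, a log2 ratio of 0.36. Of the 500 genes nearest to Uchl1 in expression 37 lay as far out, and with its short transcript (1177 bases) corrected for, the log2 ratio was 0.50. The antisense gene Uchl1os, which covers 20.7% of the exonic bases of Uchl1, was at 0.0148 and 0.0362 FPKM. Uchl1 made up 26.9% of the FPKM of Uchl1 and Uchl3 in the control library and 33.0% in the knockdown library. Uchl3 shares 46.4% of its 31-base words with the near-identical copy Uchl4, which was listed at 0.409 and 0.308 FPKM, and the sum of both left the log2 ratio of Uchl3 at -0.061. How fragments of shared sequence were divided is not given in the sources used here.

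Uchl5 works both at the proteasome and in the INO80 chromatin remodeller. It was at 84.3 and 67.6 FPKM, a log2 ratio of -0.32. Bap1 removes ubiquitin from histone H2A, the same mark on which USP21 acts. It was at 40.3 and 39.4 FPKM, a log2 ratio of -0.031, and 489 of its 500 nearest genes lay as far out. Bap1 was thus among the members that differed least between the libraries.

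The Josephin genes were at similar levels in the control library and spread apart in the knockdown library. Josd1 was at 9.28 and 12.8 FPKM, a log2 ratio of 0.45, and 124 of the 500 nearest genes lay as far out. Josd2 was at 10.6 and 6.95 FPKM, a log2 ratio of -0.60, and 42 of the 500 nearest genes lay as far out. Atxn3, the gene expanded in Machado-Joseph disease, was at 9.69 and 7.83 FPKM. Josd2 was the higher of the Josd pair with the control shRNA (53.2%) and Josd1 with the USP21 shRNA (64.7%). Length corrected, the log2 ratios were 0.42 for Josd1 and -0.42 for Josd2, so their opposite directions held. Atxn3 moved from -0.30 to -0.43 with length corrected and was then the lowest Josephin gene. Josd1 shares 15.2% of its words with Gm10651.

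Among the JAMM genes with the motif, Psmd14 encodes the subunit that strips ubiquitin from substrates entering the proteasome. It was at 88.3 and 83.3 FPKM, a log2 ratio of -0.084. Cops5 encodes the subunit of the COP9 signalosome that removes the ubiquitin-like protein NEDD8 from cullins. It was at 127 and 93.2 FPKM, a log2 ratio of -0.44, and 96 of the 500 nearest genes lay as far out. Mpnd was at 30.7 and 20.1 FPKM, a log2 ratio of -0.61 with 39 of 500 as far out, and 2.41% of its exonic bases overlap Sh3gl1 (46.3 and 42.8 FPKM) on the other strand. Cops5 and Mpnd were the lowest log2 ratios in the family. With length corrected Cops5 was at -0.37 and Mpnd at -0.54.

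Brcc3 acts in the BRISC and BRCA1-A complexes and was at 20.3 and 17.9 FPKM. Mysm1, another histone H2A deubiquitinase, was at 5.22 and 5.45 FPKM. Neither lay outside the middle 50% of all genes. Stambp and Stambpl1 act on receptors at endosomes. Stambp was at 2.82 and 3.42 FPKM, and Stambpl1 at 1.76 and 2.58 FPKM. Stambpl1 had the highest log2 ratio of the JAMM genes, 0.52, but 142 of the 500 nearest genes lay as far out.

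The genes without the motif were high and nearly level. Eif3h and Eif3f, subunits of the translation initiation factor eIF3, were at 270 and 239 FPKM and at 202 and 186 FPKM. Prpf8, the core protein of the spliceosome, was at 165 and 171 FPKM. Cops6, the partner of Cops5, was at 142 and 138 FPKM. All 4 had log2 ratios inside the middle 50% of all genes. Eif3h shares 37.4% of its words with other annotated genes, mainly the locus AC122253.2 (35.6%), and 3.58% of the exonic bases of Cops6 overlap Mcm7 (241 and 244 FPKM) on the other strand.

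Members were also set beside the complexes they belong to. In the COP9 signalosome none of 9 genes was past 1.5-fold, the median log2 ratio was -0.041, and 5 lay below the median of all genes. Cops5 (-0.44) was the lowest of the 9, against -0.19 for Cops7a, the lowest of the other subunits, and 0.092 for Cops7b, the highest. In the 19S particle of the proteasome none of 21 was past 1.5-fold and 17 lay below the median of all genes, with a list median of -0.16, which was -0.055 after length correction. Psmd14 (-0.084) lay between Psmd13 (154 and 113 FPKM, -0.45) and Psmd7 (106 and 119 FPKM, 0.17), which has the same fold.

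In the eIF3 complex 12 of 13 genes passed the filter, 11 lay below the median of all genes and none was past 1.5-fold. The list median was -0.20, and -0.16 with length corrected. Eif3e (263 and 177 FPKM, -0.57) was the lowest and Eif3g (163 and 174 FPKM, 0.094) the highest, so Eif3f (-0.12) and Eif3h (-0.17) were not its extremes. Abundant genes as a whole had low ratios. The 500 genes nearest in level to Eif3h had a median of -0.16, those nearest to Cops6 (142 FPKM) -0.13 and those nearest to Psmd14 -0.090. The eIF3 and 19S lists had medians of -0.20 and -0.16. In the control library the 19S genes ranged from 52.6 to 261 FPKM, and Psmd14 (88.3 FPKM) was among the lower ones. The U5 snRNP, which holds Prpf8, had a median of -0.16 over 8 genes, between Snrnp40 (-0.32) and Cd2bp2 (0.11), again with none past 1.5-fold.

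Bap1 and its partners had long transcripts (median 6176 bases). Of 10 genes past the filter, Bap1 included, 8 lay above the median of all genes, with a list median of 0.13, but with length corrected the median was -0.022 and 5 lay below. Mbd6 (8.39 and 13.0 FPKM, 0.63) alone was past 1.5-fold, and at 0.55 with length corrected it was not, while Kdm1b (5.87 and 5.69 FPKM, -0.043) was the lowest. Among 9 genes of the BRISC and BRCA1-A complexes none was past 1.5-fold, from Fam175b (-0.22) to Shmt2 (0.097). The INO80 complex, which contains Uchl5, had 1 of 14 genes higher by 1.5-fold, Ino80d (9.17 and 16.4 FPKM, 0.83), and 1 lower, Actr8 (21 and 10.7 FPKM, -0.96). With length corrected Ino80d was at 0.46 and Actr8 at -0.93.

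In the list of p97 (Vcp) and its cofactors, Yod1, Atxn3 and Vcpip1 included, 13 of 17 genes lay above the median of all genes, with a list median of 0.070, and 0.056 with length corrected. Yod1 was the highest of them and Atxn3 (-0.30) the lowest, and among the others the values ran from Nsfl1c (-0.082) to Ubxn2a (0.49). The 10 genes of endosomal deubiquitination, Stambp and Stambpl1 included, had a median of 0.13, and 0.046 with length corrected, from Vps28 (-0.23) to Vps37a (0.53), and none was past 1.5-fold. The 10 genes past the filter around linear ubiquitin chains and A20 had a median of -0.051, which turned to 0.0061 with length corrected, from Rbck1 (-0.34) to Cyld (0.38), and none was past 1.5-fold. Of the 11 histone H2A deubiquitinases only Usp21 was past 1.5-fold. The highest was Usp22 (67.9 and 101 FPKM, 0.58), while Bap1, Mysm1 and Brcc3 ranged from -0.18 to 0.062. At 1.49-fold Usp22 lay just under the cut, and 0 to 1 genes of this list were higher by 1.5-fold depending on the setting. The USP family as a whole had a median of 0.17 over 47 genes, and 0.029 with length corrected. Besides Usp21, 2 of its genes were past 1.5-fold, Usp26 (3.84 and 12.4 FPKM, 1.66) and Usp25 (2.46 and 3.79 FPKM, 0.60), which with length corrected were at 1.59 and 0.50.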

How the data were processed

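RNA of E14 cultures was sequenced, 1 library per group. The authors deposited FPKM values, 1 per gene symbol and library; per the labels the submitters' processing notes name CASAVA 1.8.2, TopHat2 2.0.14, Cufflinks 2.2.1 and mm9, without roles. Annotation, strand and multi-read settings are not given in the sources used here. Such settings affect genes that share sequence or overlap.

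After adding 0.1 to each FPKM, the knockdown value was divided by the control value and the log2 taken. Genes under 1 FPKM in both libraries were left out. With 1 library per group no test was run. Genes past 1.5-fold and 2-fold were counted, and each ratio was ranked among the 500 genes nearest in mean log2 FPKM, as a description. Transcript lengths (23512 of 23889 symbols), shared 31-base words and coding sequence came from GENCODE M21 (GRCm38). Since the files are on mm9, no coordinates are given. Length correction used lowess (span 0.3). Only the fold counts and the length correction were tested on simulated data. The planted changes were larger than those of the members, and the simulated spread was smaller than the real spread.

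The members and lists were chosen with earlier results of these data known. All 32 members are named, with Usp21, Uchl4 as a copy of a member (Brcc3dc was not analysed here), 4 pluripotency markers, the highest and lowest non-member of each partner list, and non-members past 1.5-fold where a list has 3 or fewer. Other markers and overlapping genes were named after their values were seen. The work was done in Python 3.11.15 with statsmodels 0.14.6 (lowess), scipy 1.17.1, pandas 2.3.3 and numpy 2.4.6. Plots were drawn in matplotlib 3.10.9.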

Additional observations from a re-analysis of the deposited data

How the results depend on the processing

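No paired analysis was possible because each group has 1 library. Of the members past 1.5-fold (2 higher, 3 lower) and 2-fold (0 higher, 1 lower), a pseudocount of 1 left 1 higher and 2 lower at 1.5-fold and 0 lower at 2-fold. Rescaling to equal sums gave 5 higher and 1 lower at 1.5-fold and 0 lower at 2-fold, with a median of 0.14. Length correction gave 0 higher and 1 lower at 1.5-fold and 0 lower at 2-fold. It also changed the sign of the log2 ratio of 6 of 30 members. These were Vcpip1 (to -0.23), Prpf8 (-0.16), Mysm1 (-0.15), Uchl3 (0.13), Cops6 (0.024) and Psmd14 (0.0017). A floor of 5 FPKM, which drops Yod1 and Otud6a, gave 1 higher and 2 lower at 1.5-fold and 0 lower at 2-fold. A pseudocount of 0.01, centring on the median of all genes and lower or no filters gave the same counts. Leaving out the 5 members that share at least 10% of words or exonic bases with another gene, or the JAMM genes without the motif (added after the data were seen), removed no gene past 1.5-fold, so the counts could not change, and the medians were -0.031 and 0.013. Among all genes the 927 higher and 771 lower at 1.5-fold were 607 and 512 with a pseudocount of 1, 1658 and 465 after rescaling, 827 and 710 with length corrected, 496 and 408 at 5 FPKM, 1557 and 1354 at 0.1 FPKM and 1738 and 1514 with no filter. At 2-fold the 274 higher and 242 lower were 108 and 100, 449 and 154, 245 and 204, 119 and 97, 521 and 459, and 521 and 459 in the same order. Precision is limited by 1 library per group and an unknown depth.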

Other observations

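Some non-USP DUB genes and relatives were not among the 32, including some with OTU or JAMM folds. Otulin, which cuts linear ubiquitin chains, was at 20.5 and 17.4 FPKM (control and USP21 shRNA), and Alg13, listed for its OTU domain, at 41.4 and 26.7, a log2 ratio of -0.63 that was -0.57 with length corrected. Alg13 alone of the 6 listed genes past the filter lay beyond 1.5-fold, and Psmd7 (0.17) was the highest. Of the MINDY genes, a family of DUBs with its own fold, Fam188a was at 22.4 and 20.9 FPKM and Fam63a at 12.2 and 12.6, whereas Fam63b (0.868 and 0.583) and Fam188b (0.719 and 0.878) stayed under the filter.

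Genes that encode ubiquitin were also measured. Ubb was at 1118 and 1225 FPKM, a log2 ratio of 0.13. Rps27a, which encodes ubiquitin fused to a ribosomal protein, was at 1886 and 1300 FPKM, a log2 ratio of -0.54 that was -0.32 with length corrected. None of the 6 ubiquitin and E1 genes was past 1.5-fold.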
